A study of Mus musculus with 4 samples.

Results

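Nuclei of 2 deposited classes of fetal mammary cells were compared: class 5, in which scores for AP-1 motifs are low, and class 9, the main luminal-like class. The class numbers come from the authors' deposited table of motif scores, and the members are all nuclei of classes 5 and 9 in the fetal libraries. Class 5 held 201 nuclei in fetal replicate 1 and 337 in fetal replicate 2, 538 in all. Class 9 held 385 and 652, 1037 in all. Together they make 1575 of the 2577 fetal nuclei and of 7846 nuclei in the whole series. In the adult libraries no nucleus was in class 5 and 19 were in class 9, and these 19 were left out.

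All nuclei came from wild-type CD1 mice, an outbred strain, at embryonic day 18. The cells were mammary cells sorted as positive for the epithelial surface protein EpCAM and negative for lineage markers, and per the labels' protocols they were thawed before nuclei were made. The design text instead calls the cells freshly sorted, and which of the statements holds for these libraries is not settled by the sources used here. Both fetal libraries are labelled biological replicates, and how many fetuses each pooled is not given in the sources used here. No barcode was shared by the fetal libraries. Because 20 nuclei were sorted into every one of the 768 final wells, a barcode combination may stand for several nuclei. Doublets were not called, and the deposited classes were used unchanged. Chromatin was read by single-nucleus ATAC-seq, in which the Tn5 transposase inserts barcoded adapters into open DNA.

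AP-1 is a dimer of FOS, JUN, BATF or ATF proteins that binds the letters TGANTCA, and it rises quickly after growth signals, injury and stress. BACH, MAF and NFE2-type factors bind an extended form of that site. SOX factors bind AT-rich sites and NFI factors bind TTGGC sites, and members of both families act in progenitor cells of several epithelia. A chromVAR deviation score compares how much open DNA with a given motif a nucleus has with the amount expected from its depth, so 0 is the average and negative values mean less than average. A motif score belongs to a site and not to the protein it is named for, since related factors share sites.

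The class numbers are deposited with the motif scores of these same nuclei, and how they were made is not given in the sources used here. They are taken to rest on the chromatin of these nuclei. The tests therefore describe which features separate the classes in both libraries and not whether the classes exist. Reads were summed per library and class, giving 4 sums, and the library was kept as a block in every test. The name low AP-1 itself came from the motif scores of these data, so the AP-1 values are a description of the class and no independent finding.

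Class 5 nuclei were shallower than class 9 nuclei. Their median was 4566 reads per nucleus in replicate 1 and 6707 in replicate 2, against 5807 and 8382 in class 9. The difference between the medians was −1241 in replicate 1 and −1675 in replicate 2. Promoter regions took 26.2% and 24.2% of class 5 reads against 24.4% and 22.5% of class 9 reads, a mean difference of 1.71 percentage points that was similar in both libraries (1.77 and 1.66). With 2 libraries an exact paired permutation test cannot go below p = 0.5, and no other test was run on these differences. Reads summed to 1118413 and 2802747 for class 5 and to 2835995 and 6657005 for class 9. Over the 16 combinations of barcode parts 1 and 3, class 5 made up 16.7% to 46.7% of the nuclei of both classes in replicate 1 and 24.2% to 43.1% in replicate 2. Over single indices with at least 20 nuclei the ranges were wider for part 4 in replicate 1 (14.3% to 50%) and for part 2 in replicate 2 (21.7% to 58.3%).

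The share of features that passed was largest for motif scores and smallest for promoter regions, under tests of different power. Of 388 distinct motif scores, 103 (26.5%) differed by limma at an adjusted p under 0.05, 54 higher in class 5 and 49 higher in class 9. By edgeR, 346 of 36090 distal regions (0.959%) differed, 97 higher in class 5 and 249 higher in class 9. Of 13670 promoter regions, 21 (0.154%) did, 20 of them higher in class 9. Over whole gene spans, that is, a gene with 2000 bases on either side, 191 of 16978 (1.12%) differed, 32 higher in class 5 (0.188%) and 159 higher in class 9 (0.937%). The counts of regions depend on the test, and the split of distal regions by direction depends on the read filter. DESeq2 called 6 distal regions, 0 promoter regions (153 at an unadjusted p under 0.05) and 14 gene spans. A fit of 4 fetal classes in 1 model called 92 distal regions, 3 promoter regions and 70 gene spans, and with any single sum of class 5 or 9 left out of it 0, 0 and 6 to 17.

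The Fos motif had a mean score of −5.45 in class 5 of replicate 1 and −6.39 in class 5 of replicate 2. In class 9 its means were −1.09 and −0.97. The class 5 mean lay far below the class 9 mean in both libraries, and the 4 means did not overlap between the classes. The difference was −4.89 ± 0.27 (SE, 4 means, limma adjusted p = 0.00514). All 9 distinct score columns of AP-1 motifs were lower in class 5, beside 12.6% of all motifs, with a median difference of −2.63 where the median of all motifs was 0.03. Fosb (−3.86), Jund (−3.73), Junb (−3.30) and Fosl1 (−2.63) followed Fos. Batf, whose column is identical to that of Batf3, differed by −2.23 and Jun by −1.71. Fosl2 (−0.44) and Jdp2 (−0.26) were the smallest, and the Jdp2 call was lost in 3 of the 4 fits that left out 1 mean.

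**Figure D1:**
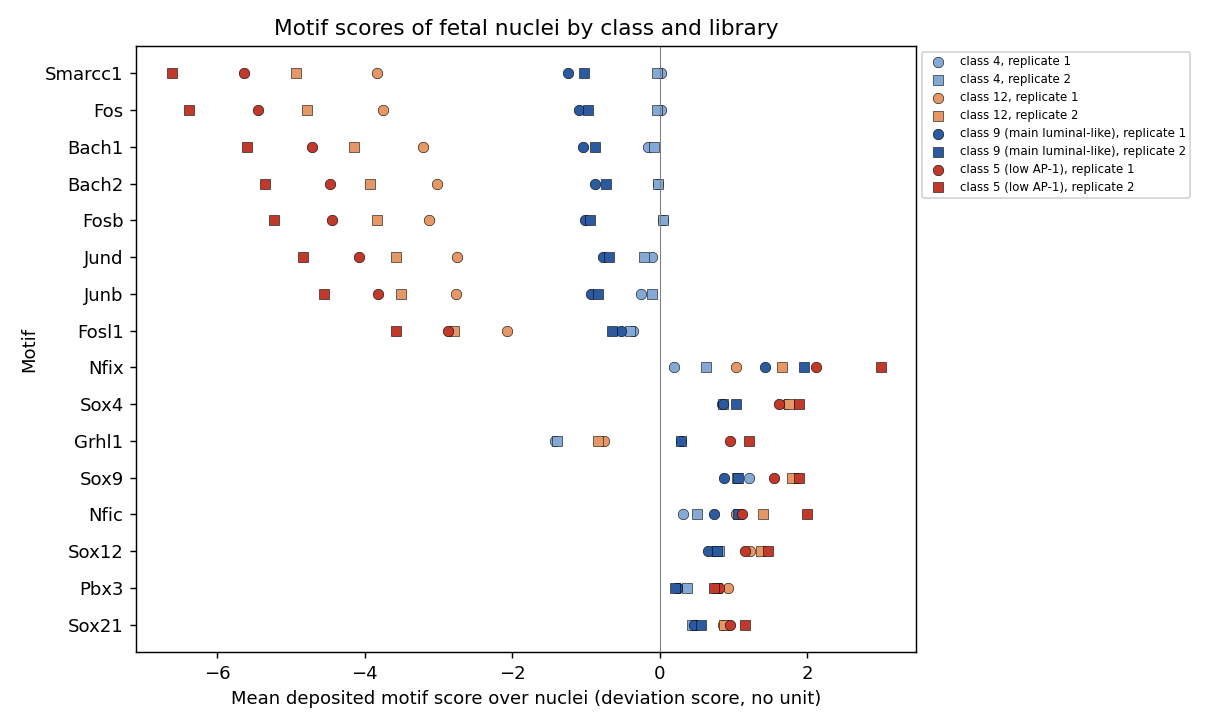
Mean deposited motif score over the nuclei of each fetal library (x axis, deviation score without a unit) for the 8 motifs with the largest difference in each direction (y axis). Circles are replicate 1, squares replicate 2, and colours give the class. From Smarcc1 to Fosl1 the red points of class 5 lie left of the dark blue points of class 9 (differences of −5.00 to −2.63), and from Nfix to Sox21 they lie to the right (0.54 to 0.87).

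Motifs of the AP-1-like factors were called lower in class 5 in 7 of 8 columns, beside 12.6% of all motifs (median −0.64). Bach1, a haem-regulated repressor, scored −4.72 and −5.60 in class 5 against −1.04 and −0.88 in class 9, and the related Bach2 differed by −4.11. Nfe2l2, the oxidative stress factor NRF2, differed by −2.43. The exception was Mafk, a small MAF protein, at 0.17 (limma adjusted p = 0.0719). The largest difference of all, −5.00 ± 0.30, belonged to the score named for Smarcc1, a subunit of the SWI/SNF chromatin remodelling complex. Its values of −5.64 and −6.62 in class 5 and −1.24 and −1.03 in class 9 nearly match those of Fos. CREB and ATF motifs, whose core differs from that of AP-1 by 1 inserted base, were called lower in 4 of 11 columns, beside the same 12.6%. The differences were −0.55 for Creb3, −0.39 for Atf7, −0.36 for Atf2 and −0.35 for Atf3.

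Scores of single nuclei overlapped far more than the library means. The median Fos score per nucleus was −5.25 and −6.14 in class 5 and −0.847 and −0.675 in class 9. Class 5 nuclei spanned −10.3 to −1.18 in replicate 1 and −12.0 to −1.92 in replicate 2, taken from the 5th to the 95th percentile. Class 9 nuclei spanned −5.83 to 2.66 and −6.43 to 3.45. A class 5 nucleus scored below a class 9 nucleus in 87.6% of all pairs in replicate 1 and 89.4% in replicate 2. The middle 90% of class 9 nevertheless held 60.7% and 54.3% of the class 5 nuclei, so the Fos score alone does not sort nuclei into the classes.

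The Fos score moved with depth inside class 5. In the shallowest of 3 depth groups of replicate 1 the class 5 mean was −3.92, in the middle group −5.64 and in the deepest −8.01. In replicate 2 the means were −4.28, −6.56 and −9.44. Class 9 ran from −0.531 to −1.64 and from −0.343 to −1.81 over the same groups. Class 5 was lower than class 9 at each depth in both libraries, also where the median depths nearly matched (5388 and 5381 reads in the middle group of replicate 1). Pearson's r between Fos score and log depth over the nuclei of class 5 was −0.639 and −0.710, against −0.208 and −0.212 in class 9, as a description of nuclei that share a library.

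**Figure D2:**
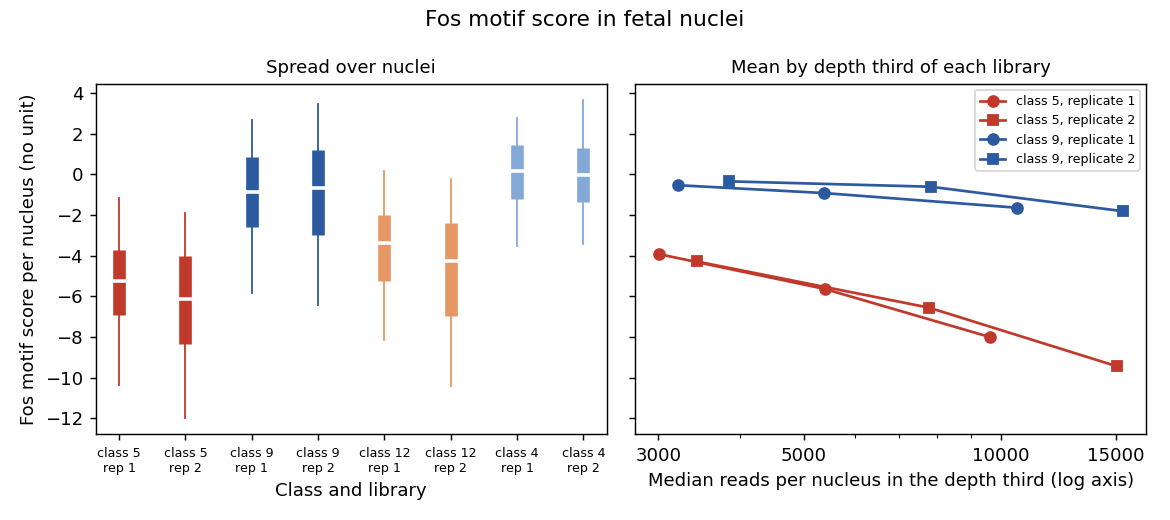
Left, Fos motif score per nucleus (y axis, no unit) by class and library, with a white mark at the median, a thick bar from the 25th to the 75th percentile and a thin line from the 5th to the 95th percentile. Right, mean Fos score against the median reads per nucleus (log axis) of 3 depth groups. Class 5 runs from −3.92 to −9.44 with depth and stays below class 9, which runs from −0.343 to −1.81.

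SOX and NFI motifs were higher in class 5, by smaller amounts. All 12 SOX columns were called higher, beside 13.9% of all motifs, with a median difference of 0.50. They were not equally stable. Sox13 (0.36) kept its call in 2 of 5 alternatives with both libraries, and was 0.23 in replicate 1 alone and 0.49 in replicate 2 alone. Sox4, a SoxC factor active in embryonic progenitors, scored 1.62 and 1.90 in class 5 against 0.86 and 1.03 in class 9 (difference 0.81 ± 0.05, limma adjusted p = 0.00514). Sox9, which marks progenitor cells in many epithelia, differed by 0.75, Sox12 by 0.60, and Sox10, a fetal mammary stem cell factor, by 0.43. All 3 NFI columns were also higher. Nfix scored 2.13 and 3.00 against 1.43 and 1.97, a difference of 0.87 ± 0.10 (limma adjusted p = 0.0117). Within a library the class means were apart for Nfix, and the class 5 mean of replicate 1 was only just above the class 9 mean of replicate 2. Single nuclei overlapped more than for Fos. The middle 90% of class 9 held 89.1% and 85.8% of class 5 nuclei for Nfix and 85.6% and 79.2% for Sox4. The class 9 mean of Nfix rose with depth, from 0.87 to 1.91 in replicate 1 and from 1.30 to 2.73 in replicate 2. Class 5 was above class 9 in each depth group. The Nfic and Nfia columns differed by 0.66 (0.38 in replicate 1 and 0.93 in replicate 2) and 0.51 (0.30 and 0.73), and both calls were lost in 2 or more of the fits that left out 1 mean.

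Grhl1, the grainyhead factor of epithelial barriers, scored 0.95 and 1.22 in class 5 against 0.28 and 0.29 in class 9 (difference 0.80 ± 0.08, limma adjusted p = 0.0103). Pbx3, a homeodomain cofactor, differed by 0.55. Of 6 STAT columns, 5 were higher by 0.25 to 0.39, beside 13.9% of all motifs, among them Stat5a and Stat5b, the mediators of prolactin signalling. So were 10 of 19 ETS columns and 7 of 16 KLF and SP columns, with medians over each list of 0.23 and 0.20. Nfya, a promoter factor that binds CCAAT, was higher by 0.41. Of the ETS factors of luminal cells, Spdef was among them, at 0.26 (limma adjusted p = 0.0262), and lost its call in all 4 fits that left out 1 mean. The others were not: the difference was −0.07 for Elf5 (limma adjusted p = 0.298), −0.06 for Elf3 and 0.02 for Ehf.

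A few other families were lower in class 5. Both RUNX columns were, by −0.36 for Runx1 and −0.35 for Runx2, 2 factors needed in mammary epithelium, beside 12.6% of all motifs. Of 4 E-box columns, 3 were lower, led by the repressor Zeb1 at −0.46, with Snai2 at −0.25, whose call was lost in all 4 fits that left out 1 mean. Esr1, the oestrogen receptor, differed by −0.42. No column passed among the TEAD, p53, CEBP, NF-kB, IRF, TCF, EGR, RFX and GATA lists, and Ctcf differed by 0.15 (limma adjusted p = 0.0976). The means of all 103 called motifs did not overlap between the classes, beside 249 of all 388 motifs (64.2%). A kept direction of called motifs in single libraries therefore follows from the calls. Of 68 motifs named by rule or called on a list, 31 kept their call in all 4 fits that left out 1 mean and none changed direction in any alternative.

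The fetal libraries hold a second pair of classes with the same contrast. Class 12, with 339 nuclei, also has low AP-1 scores and leans to basal markers, and class 4, with 470 nuclei, is basal-like. Fos scored −3.76 and −4.79 in class 12 against 0.02 and −0.03 in class 4, a difference of −4.27 (limma adjusted p = 0.000144). The difference between the pairs, −0.62 ± 0.37, did not pass (limma adjusted p = 0.601). The same was measured for Smarcc1 (−4.37 in the basal pair), Bach1 (−3.57), Nfix (0.94), Sox4 (0.88) and Grhl1 (0.62). In the basal pair 68 of 388 motifs (17.5%) differed, 35 higher in class 12 (9.02%) and 33 higher in class 4 (8.51%). Of these 68, 54 were also called between classes 5 and 9, all in the same direction. This is 79.4% of the basal list, beside 26.5% of all motifs called between classes 5 and 9. It is 52.4% of the luminal list, beside 17.5% of all motifs called in the basal pair. Class 12 was taken as a low-AP-1 class from these same scores and the pairs share libraries. The low AP-1 values and the overlap are therefore partly set by that choice.

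No motif and no distal region differed between the pairs in the test of the difference itself. Limma called 0 of 388 motifs, with 42 at an unadjusted p under 0.05, and edgeR called 0 of 26719 distal regions, with 1021 (3.82%) at an unadjusted p under 0.05. On gene spans edgeR called 0 of 16639, with 874 at an unadjusted p under 0.05. These counts do not show that the pairs are alike, since 2 libraries leave wide errors, and all 4 classes come from the same pools.

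**Figure D3:**
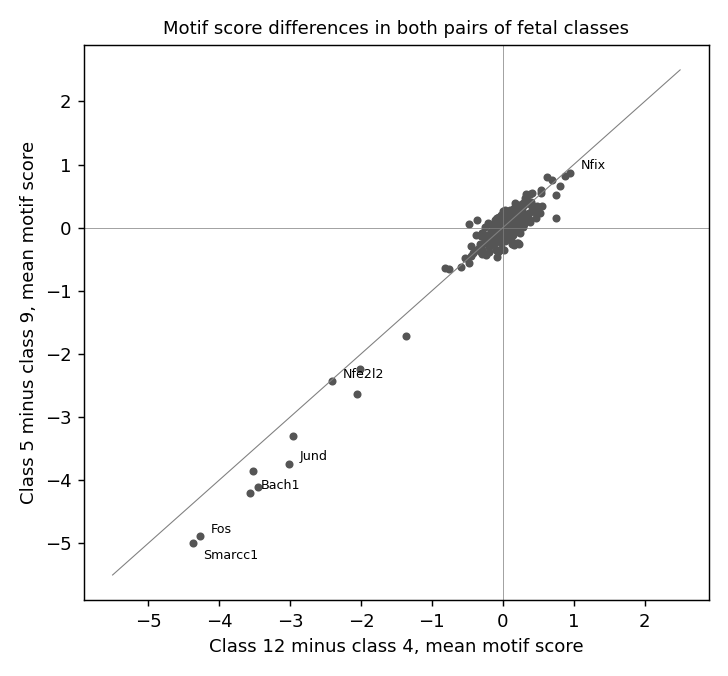
Difference in mean motif score between class 12 and class 4 (x axis) and between class 5 and class 9 (y axis) for 388 motifs, with a line of equal difference. Fos and Smarcc1 sit at the lower left in both pairs (−4.27 and −4.89 for Fos), and Nfix at the upper right (0.94 and 0.87).

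Of distal regions higher in class 9, the one at chr11:101687469-101688468, 19637 bases from Arl4d, a small GTPase gene, had 6.34 and 15.2 CPM in class 5 against 89.3 and 88.8 in class 9. CPM here scales the reads of a sum to a common total over tested regions, with TMM factors. Its log2 fold change was −2.87 ± 0.44 (SE derived from the F statistic, edgeR adjusted p = 0.00475). A region inside Ltbp3, a gene for a latent TGF-beta binding protein, at chr19:5743133-5744132, had 25.4 and 6.34 CPM against 120 and 62.2 (log2 fold change −2.72). Another lay 8520 bases from Pkp1, a desmosome gene, at chr1:135861875-135862874 (log2 fold change −2.63). Counts and fold sizes of distal regions are not compared between directions, because class 9 sums hold more reads. A region with few class 5 reads can pass the read filter through class 9. With no filter on low counts, edgeR called 39 regions higher in class 5 and 501 higher in class 9. At a mean of at least 50 reads it called 147 and 259, and 119 of these 406 were shared with the main fit. Leaving out the 5% of nuclei with most reads in each library and class ended every distal call (0 by edgeR, with 3860 at an unadjusted p under 0.05), while counting nuclei with a read in place of reads gave 1357. The 16 named distal regions kept their direction in every setting tried. They were named only if their values did not overlap between the classes, so this is partly set by the choice.

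The other 5 of the 8 named regions higher in class 9 are given with the gene they lie in or nearest to. One inside Lif, a cytokine gene of luminal progenitors, at chr11:4262475-4263474, had 15.9 and 14 CPM in class 5 against 93.0 and 71.1 in class 9 (log2 fold change −2.42 ± 0.43, edgeR adjusted p = 0.00800). Its highest deposited co-accessibility score was with the promoter of Rnf215 (0.103). The region at chr7:66575866-66576865 lies 67700 bases from Asb7, and the promoter with its highest deposited co-accessibility score (0.133) was that of Aldh1a3, the retinaldehyde dehydrogenase gene of luminal progenitors (log2 fold change −2.61). One inside Col17a1, the hemidesmosome collagen gene, at chr19:47654658-47655657, had 6.34 and 17.8 CPM against 65.7 and 70.0 (−2.34 ± 0.48, edgeR adjusted p = 0.0176), and its highest co-accessibility score was with the promoter of Stn1 (0.116). The remaining ones were 10381 bases from Ndrg1 (−2.41) and 74706 bases from Tpcn2 (−2.34). The Tpcn2 value was −1.04 in replicate 1 alone and −3.45 in replicate 2 alone.

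Among distal regions higher in class 5, the one at chr6:55791392-55792391, 12899 bases from Itprid1, had 98.3 and 124 CPM in class 5 against 24.8 and 39.2 in class 9 (log2 fold change 1.78 ± 0.31, edgeR adjusted p = 0.00800). One at chr9:47357653-47358652, in a gene-poor stretch 171518 bases from the adhesion gene Cadm1, had 171 and 129 against 36 and 50.7 (1.72 ± 0.28, edgeR adjusted p = 0.00493). One at chr10:99283496-99284495 lay 16007 bases from Dusp6, a phosphatase gene that is induced by and dampens ERK signalling, with 140 and 101 against 36 and 42.8 (1.54 ± 0.30, edgeR adjusted p = 0.0127). The others of the 8 had Cops2 (1.73), Tle3 (1.52) and Ppp4r2 (1.40) as nearest genes or lay inside Ippk (1.52) and Xylt1 (1.40, with 2.10 in replicate 1 alone and 0.84 in replicate 2 alone). DESeq2 kept the calls by Cadm1, Arl4d and Ltbp3 (each DESeq2 adjusted p = 0.044) and none of the other 13.

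The called distal regions were spread over 19 chromosomes in each direction. Their median distance to a deposited promoter region was 41.0 kb for those higher in class 5 and 41.3 kb for those higher in class 9, against 36.5 kb for all tested regions. Of those higher in class 5, 11.3% were within 10 kb of a promoter region, of those higher in class 9 20.5%, and of all tested 19.8%. Inside a gene lay 42.3%, 45.8% and 53.3%.

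Of the 21 promoter regions that passed, 20 were higher in class 9 with TMM scaling. Scaled by all reads of the nuclei, 11 were called higher in class 5 and 15 higher in class 9, and without the 5% deepest nuclei 3 were called. A region 735 bases from Noct, the nocturnin gene, at chr3:51222713-51223712, had 14.2 and 25.8 CPM in class 5 against 117 and 129 in class 9 (log2 fold change −2.53 ± 0.39, edgeR adjusted p = 8.10e-07). The region over the start of Cd68, a lysosomal protein gene used as a macrophage marker, at chr11:69665691-69666690, had 0 and 27.4 CPM against 88.5 and 86.9 (−2.37 ± 0.44, edgeR adjusted p = 0.000218). It was −4.46 in replicate 1 alone, where class 5 had 0 reads, and −1.60 in replicate 2 alone. All 5 tested genes of the immune marker list also had lower values in class 5, with 0 called and summed spans of 48.3 and 67.6 CPM against 91.7 and 84.2. The sort kept EpCAM-positive cells negative for lineage markers, and the part of immune nuclei in the Cd68 value was not tested.

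A region that overlaps an AP-1 gene was among them. The one at Fosl1, which encodes the AP-1 subunit FRA-1, at chr19:5447143-5448142, had 42.5 and 27.4 CPM in class 5 against 114 and 85.5 in class 9 (log2 fold change −1.54 ± 0.37, edgeR adjusted p = 0.0257). It overlaps an end of the gene, but none of the RefSeq start sites used here lay in it. Matching by start site found regions for 8 of the 11 AP-1 subunit genes and so missed this region. Of the 7 tested regions matched that way, 0 were called by edgeR (log2 fold changes of −0.27 to 0.39), beside 0.154% of all promoter regions. That count therefore leaves out the called region at Fosl1. The whole span of Fosl1 was at 39.3 and 57.3 against 78.4 and 75.3 (−0.62, edgeR adjusted p = 0.149). Other promoter regions higher in class 9 lay at Rin1, a Ras effector gene (−1.73, with −0.78 in replicate 1 alone and −2.49 in replicate 2 alone), inside Coq8b (−1.89) and Prss22 (−1.36), 402 bases from Snai3 (−1.41), and at the start of LOC115489488, 25001 bases from Top1 (−1.93). The 1 region higher in class 5 (0.00732% of those tested) was that of Crot, a peroxisomal carnitine acyltransferase gene, at chr5:8996611-8997610, with 152 and 135 against 85.5 and 44.8 (1.24 ± 0.29, edgeR adjusted p = 0.0213), and 0.80 in replicate 1 alone. None of these 9 was called by DESeq2 or with a sum left out.

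Letters of the AP-1 site were searched in the 250 bases before gene starts in RefSeq (GRCm38.p6, the assembly of mm10), on both strands. TGANTCA was in 6.75% of all 32851 windows and in 5.14% of the 17018 windows of genes with a tested span. It was in 18 of 173 windows of genes higher in class 9 (10.4%) and in 0 of 40 windows of genes higher in class 5. The 173 windows belong to 127 genes and the 40 to 27 genes, so a gene can count more than once. The shares were not tested, and at 5.14% few matches would be found in 40 windows. The following 4 windows, of genes whose promoter region or span was lower in class 5, are shown 5′ to 3′ on the gene's strand because they hold such letters. They were chosen after the values were seen, and capitals mark the matches.
Cd68, chr11:69666171-69666420, minus strand: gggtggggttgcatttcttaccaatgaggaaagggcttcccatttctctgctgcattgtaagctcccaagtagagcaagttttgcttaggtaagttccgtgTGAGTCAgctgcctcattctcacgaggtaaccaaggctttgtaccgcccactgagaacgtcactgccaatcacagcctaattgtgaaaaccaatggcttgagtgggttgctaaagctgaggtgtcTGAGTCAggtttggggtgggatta
Arhgap40, chr2:158512546-158512795, plus strand: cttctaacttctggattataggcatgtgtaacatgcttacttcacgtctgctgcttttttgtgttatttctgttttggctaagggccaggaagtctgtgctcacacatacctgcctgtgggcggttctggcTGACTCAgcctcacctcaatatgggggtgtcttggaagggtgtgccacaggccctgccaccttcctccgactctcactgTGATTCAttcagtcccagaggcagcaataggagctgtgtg
Plet1, chr9:50494275-50494524, plus strand: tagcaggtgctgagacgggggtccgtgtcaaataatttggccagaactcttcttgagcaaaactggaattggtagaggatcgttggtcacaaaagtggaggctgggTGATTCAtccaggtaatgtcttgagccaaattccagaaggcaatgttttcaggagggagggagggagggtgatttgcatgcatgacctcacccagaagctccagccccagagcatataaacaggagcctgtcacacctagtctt
Emp1, chr6:135362681-135362930, plus strand: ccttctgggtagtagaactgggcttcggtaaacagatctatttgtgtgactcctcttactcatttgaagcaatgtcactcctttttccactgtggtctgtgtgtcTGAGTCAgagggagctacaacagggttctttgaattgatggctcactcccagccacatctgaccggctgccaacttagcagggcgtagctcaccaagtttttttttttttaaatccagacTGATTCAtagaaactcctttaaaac
The matches of Cd68 begin 149 and 24 bases before the start site, those of Arhgap40 119 and 40, that of Plet1 144, and those of Emp1 145 and 25. A match describes letters and is no measured binding site.

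Over whole gene spans, Plet1 and Anxa3 were lower in class 5. Plet1, a surface protein gene of epithelial progenitors, had 55.1 and 65.2 CPM in class 5 against 134 and 181 in class 9 (log2 fold change −1.40 ± 0.17, edgeR adjusted p = 4.05e-12). Anxa3, an annexin gene, had 52.8 and 61.5 against 141 and 130 (−1.21 ± 0.18, edgeR adjusted p = 6.29e-08). Of the 30 gene spans named by rule or called on a list, these were the only 2 that kept their call in all 4 fits with a sum left out, and DESeq2 called both. S100a3, a calcium-binding protein gene, had 69.7 and 93.2 against 166 and 162 (log2 fold change −0.98), over a span that shares reads with neighbouring S100 genes. Emp1, an epithelial membrane protein gene, had 58.5 and 57.8 against 122 and 109 (−0.97). Arhgap40, which was not named by the rule and was added after the values were seen, had 39.3 and 38.7 against 72.9 and 78.7 (−0.97). Plb1, Flnc and Lurap1l were lower by similar amounts (−0.94, −0.92 and −0.91).

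**Figure D4:**
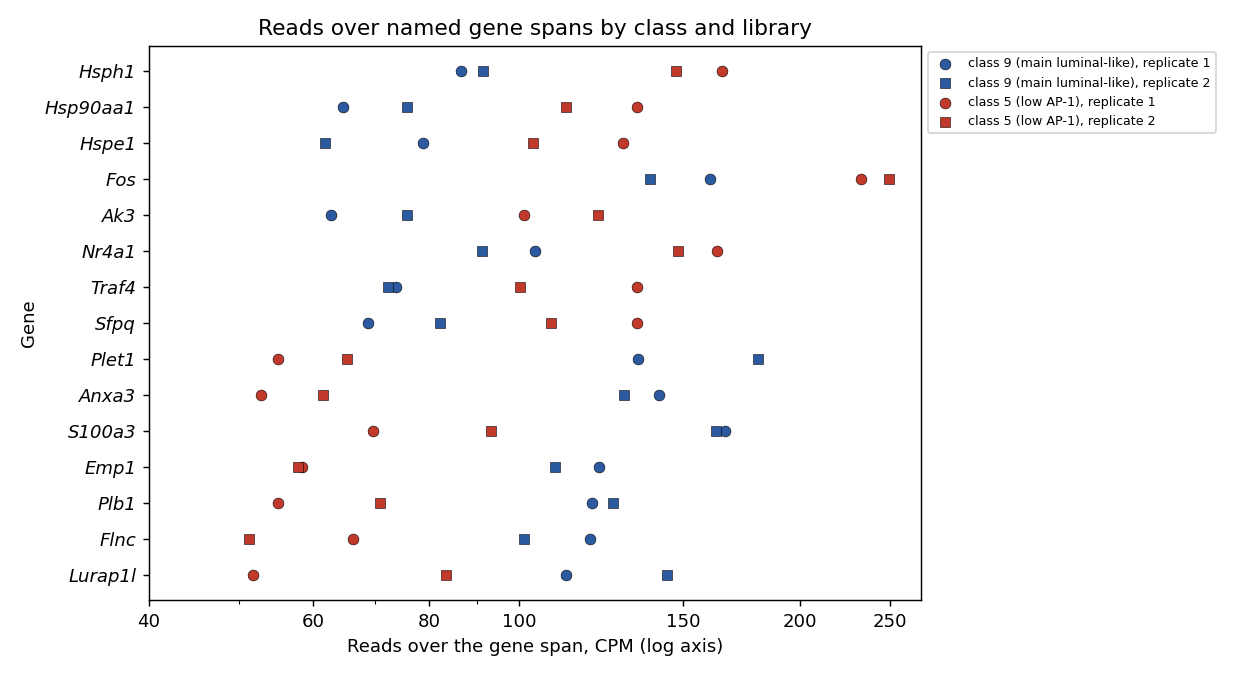
Reads over gene spans taken by the rule for named genes, 8 higher and 7 lower in class 5, in CPM (x axis, log scale), by class (colour) and library (circle, replicate 1, and square, replicate 2). The rule took only spans whose class 5 and class 9 points do not overlap. Rows run from Hsph1 (165 and 147 against 86.6 and 91.5) to Lurap1l (51.7 and 83.4 against 112 and 144).

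Keratin genes of luminal cells were partly lower in class 5. Krt8, a simple keratin gene of luminal cells, had 85.4 and 97.9 CPM against 144 and 158 (log2 fold change −0.72, edgeR adjusted p = 0.00156). Krt7 was lower too (−1.04, edgeR adjusted p = 0.0456), by −1.61 in replicate 1 alone and −0.67 in replicate 2 alone. The Krt7 call was kept in only 2 of 9 alternatives with both libraries. Krt18, the partner of Krt8, was at 54.0 and 46.1 against 53.2 and 56.6 and did not pass. On the pan-luminal list 2 of 8 genes were lower, beside 0.937% of all spans, and on the luminal progenitor list 2 of 10, Aldh1a3 (−0.82) and Lif (−0.79). On the basal list 2 of 13 were lower, Krt17 (−1.30) and Nrg1, a ligand of ErbB receptors (−0.44). Over the alternatives Nrg1 ranged from −0.65 to −0.06, and its call was kept in 8 of 10 with both libraries. No gene on these 3 lists was called higher in class 5, and 0 of 9 on the mature luminal list was called in either direction.

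Beside the basal-like class 4, whole marker lists were compared by their values in a fit of the 4 classes, a comparison added after the values were seen and not tested. Of 8 pan-luminal genes, 5 were higher in class 5 than in class 4 in both libraries and 0 lower in both, and in class 9 all 8 were higher. Krt18 was at 53.5 and 45.6 CPM in class 5, 52.6 and 56.1 in class 9, and 17.4 and 12.3 in class 4. Of 10 luminal progenitor genes, 7 were higher in class 5 in both libraries, among them the ETS gene Ehf at 152 and 185 against 55.2 and 55.9 in class 4. The other 3, Aldh1a3, Cd14 and Lif, were lower in both, with Lif at 88.0 and 68.1 against 134 and 123. In class 9, 8 of the 10 were higher and 0 lower. Of 9 mature luminal genes, 0 were higher in class 5 in both libraries and 6 were lower, such as Esr1 at 86.9 and 97.6 against 145 and 154. In class 9, 2 were higher and 5 lower. Of 13 basal genes, 8 were lower in class 5 than in class 4 in both libraries, and Krt5, a basal keratin gene, was at 2.23 and 7.82 in class 5, 11.8 and 11.3 in class 9, and 29.1 and 37.9 in class 4. The 1 basal gene higher in both was Id4, at 78.0 and 86.5 against 64.0 and 78.7. In class 9, 10 basal genes were lower and 0 higher. Between classes 5 and 9, 44 of 49 marker genes of 8 other cell types were tested. EdgeR called 0 of them, and 25 had lower values in class 5 than in class 9. Their summed level was 1428 and 1496 CPM in class 5 and 1355 and 1440 in class 9. The lists did not all move alike: nerve sheath genes summed to 330.5 and 341 CPM in class 5 against 267 and 277 in class 9 and hair follicle genes to 444 and 431 against 356 and 402, while endothelial genes summed to 127 and 158 against 155 and 174.

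Adhesion and fetal genes differed singly. Col17a1 had 18 and 24.2 CPM in class 5 against 65.1 and 67.1 in class 9 (log2 fold change −1.60, edgeR adjusted p = 2.87e-06). Cdh1, which encodes E-cadherin, had 194 and 256 against 338 and 332 (−0.55, edgeR adjusted p = 0.000173), with −0.79 and −0.36 in the single libraries. These were the 2 called of 14 adhesion and matrix genes, beside 0.937% of all spans higher in class 9, and the laminin genes Lama3 (−0.35) and Lamb3 (−0.52) did not pass. Igf2bp2, an RNA-binding protein gene active in fetal tissues, had 141 and 135 against 225 and 236 (−0.75, edgeR adjusted p = 9.91e-06) and was the 1 called of 10 fetal mammary genes. Notch1, a receptor of cell fate choice, was the 1 called of 12 Notch genes, beside 0.188% of all spans higher in class 5, at 279 and 297 against 242 and 197 (0.42, edgeR adjusted p = 0.0211), with 0.21 and 0.60 in the single libraries. No gene was called among 12 embryonic mammary bud genes, 13 regulators of the AP-1 pathway, 7 milk and defence genes, 9 cell cycle genes or the 4 NFI genes. Nfix came closest there, at 460 and 423 against 356 and 354 (0.31, edgeR adjusted p = 0.0648).

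Heat shock genes were among the spans higher in class 5. Of 9 listed, 6 were called higher, beside 0.188% of all spans, with a median log2 fold change of 0.73 over the list and 0.00 over all spans. Hsph1, a large chaperone gene, had 165 and 147 CPM in class 5 against 86.6 and 91.5 in class 9 (0.79 ± 0.15, edgeR adjusted p = 0.000177). Hsp90aa1, the inducible HSP90 gene, had 134 and 112 against 64.6 and 75.7 (0.77 ± 0.17, edgeR adjusted p = 0.00211). Hspe1 and Hspd1, which share a promoter and encode the mitochondrial chaperonin, were higher by 0.73 and 0.59. The inducible HSP70 genes Hspa1a (1.10 ± 0.26, edgeR adjusted p = 0.00708) and Hspa1b (0.82) were higher too, but they are near-identical copies and the split of reads between them is uncertain. Hspa8 (0.24), Dnajb1 (0.29) and Hspb1 (−0.20) did not pass.

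Fos showed the same direction as a gene, opposite to its motif. Its span had 233 and 250 CPM in class 5 against 160 and 138 in class 9 (log2 fold change 0.72 ± 0.12, edgeR adjusted p = 1.01e-05). It was the 1 called of 11 AP-1 subunit genes, beside 0.188% of all spans higher in class 5. Jun (0.06), Junb (0.12), Jund (−0.02) and Atf3 (0.20) were near the median of all spans. Of 17 immediate early and stress genes, 1 was called higher and 1 lower, beside 0.188% and 0.937% of all spans. Nr4a1, an orphan nuclear receptor, was higher, at 163 and 148 against 104 and 91.1 (0.68 ± 0.15, edgeR adjusted p = 0.00213). Klf6 was lower, at 289 and 212 against 351 and 347 (−0.52, edgeR adjusted p = 0.000392), with −0.27 and −0.70 in the single libraries. Egr1 did not pass, at 319 and 218 against 218 and 202. The other genes by rule were Ak3 (0.69), Traf4 (0.64) and Sfpq (0.63, with 0.96 and 0.40 in the single libraries). The Fos call held in DESeq2 (DESeq2 adjusted p = 0.0355) and in 1 of the 4 fits with a sum left out. None of the 6 heat shock calls passed with a sum left out. DESeq2 gave no adjusted p for Hspa1a and Hspa1b and called none of the other 4, with a DESeq2 adjusted p of 0.0794 for Hsph1. Counting nuclei with a read in place of reads lowered the log2 fold change of Hsph1 to 0.34 (edgeR adjusted p = 0.517), of Hsp90aa1 to 0.43 (0.353) and of Hspa1b to 0.37 (0.638). In nuclei at or above the median depth Hsph1 was at 0.53 (edgeR adjusted p = 0.288), and of the 6 only Hsp90aa1 was called there. In the fit of 4 classes only Hsph1 was. Hspd1 kept its call in 3 of 10 alternatives with both libraries.

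For the called heat shock genes split here, the class 5 to class 9 ratio of reads was larger in and past the gene bodies than at the starts. None of the 6 tested promoter regions of the list was called by edgeR, beside 0.154% of all promoter regions. With so low a share, 0 of 6 says little about the list. The promoter region of Hsph1 had 209 and 220 CPM in class 5 against 194 and 212 in class 9. Reads were then split by position for Hsph1, Hspe1, Hspa1a and Hspa1b together (Hspd1 was left out because it shares its start region with Hspe1), as RPM, which scales to all reads of the nuclei, a split chosen after the values were seen and not tested. Only genes whose spans were called higher in class 5 were taken, so Dnajb1, Hspb1 and Hspa8 were left out. With such spans and no promoter region called, a larger ratio away from the starts is partly set by this choice. Within 500 bases of the start they were 129 and 111 RPM in class 5 against 95.2 and 92.1 in class 9, a ratio of 1.35 and 1.2. In the gene body past 500 bases they were 106 and 76.7 against 37.0 and 27.5, a ratio of 2.87 and 2.79. In the 2000 bases past the end they were 103 and 67.8 against 30.3 and 20.6, a ratio of 3.39 and 3.29. In the 500 to 2000 bases upstream the ratio was 1.32 and 1.08. For Hspe1 this zone may hold reads of the span of Hspd1, which was also called higher in class 5. Reads that touched a deposited promoter region were 186 and 151 RPM in class 5 against 130 and 121 in class 9, a ratio of 1.43 and 1.25.

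For Fos the ratio of class 5 to class 9 was 2.14 and 1.08 in the 500 to 2000 bases upstream, 0.909 and 1.64 within 500 bases of the start, 1.86 and 2.43 in the body and 1.79 and 2.49 past the end. In replicate 1 the upstream ratio was thus above those of the body and past the end, and in replicate 2 it was the lowest of the 4. The promoter region of Fos had 188 and 274 CPM against 221 and 175 and was not called (0.28, edgeR adjusted p = 0.951). The same 4 heat shock genes were chosen by their calls between classes 5 and 9, so the basal pair is not an even comparison. In the basal pair their body ratio of class 12 to class 4 was 0.949 and 0.919. In replicate 1 this ratio rests on 8 reads in class 12 and 13 in class 4. Within 500 bases of the start it was 1.47 and 1.37, and over promoter regions 1.32 and 1.41. In that pair edgeR called 0 of 9 heat shock spans (median 0.15). Over all 16008 spans tested in that pair, 43 were called (0.269%), 2 higher in class 12 (0.0125%) and 41 higher in class 4 (0.256%). Fos differed there by 0.01 ± 0.21. The difference between the pairs had an unadjusted edgeR p of 0.00355 for Fos and 0.0161 for Hsph1, but neither passed over all spans (edgeR adjusted p = 0.780 and 0.835).

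**Figure D5:**
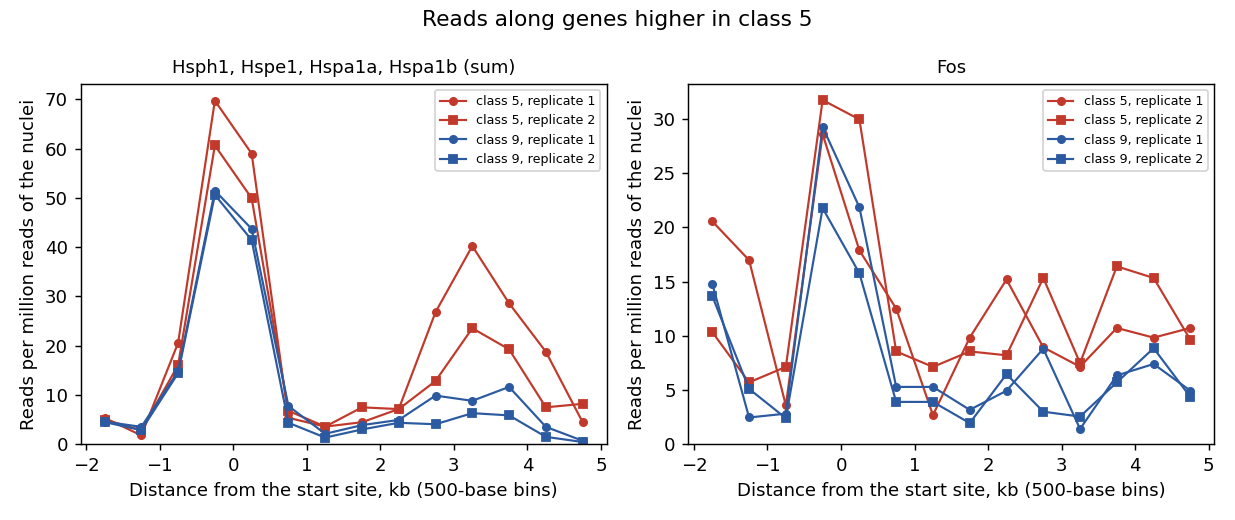
Reads scaled to all reads of the nuclei (y axis, RPM) in 500-base bins by distance from the start site in kb (x axis). Values are summed over 4 heat shock genes called higher in class 5 (left) and shown for Fos (right). Class 5 is red and class 9 blue, with circles for replicate 1 and squares for replicate 2. On the left the ratio of class 5 to class 9 is 1.35 and 1.2 within 500 bases of the start and 2.87 and 2.79 in the body past it. On the right the libraries differ at the start of Fos, with a ratio of 0.909 in replicate 1 and 1.64 in replicate 2.

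Letters of the heat shock factor site, GAANNTTC or TTCNNGAA, were searched in the same windows after the values had been seen. They were in 12.8% of all windows, 10.4% of windows of genes with a tested span, 8 of 40 windows of genes higher in class 5 (20%) and 22 of 173 of genes higher in class 9 (12.7%). The 40 windows belong to 27 genes and include those of Hsph1, Hspe1 and Hspa1b. The 20% therefore in part restates the heat shock calls. The 3 heat shock windows below hold matches, marked by capitals, and are shown because the spans of these genes were among those called higher in class 5.
Hsph1, chr5:149636337-149636586, minus strand: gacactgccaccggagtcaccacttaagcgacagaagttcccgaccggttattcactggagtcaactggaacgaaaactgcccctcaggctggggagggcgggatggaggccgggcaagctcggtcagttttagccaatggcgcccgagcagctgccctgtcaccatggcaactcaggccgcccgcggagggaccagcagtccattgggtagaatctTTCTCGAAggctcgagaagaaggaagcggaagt
Hspe1, chr1:55087898-55088147, plus strand: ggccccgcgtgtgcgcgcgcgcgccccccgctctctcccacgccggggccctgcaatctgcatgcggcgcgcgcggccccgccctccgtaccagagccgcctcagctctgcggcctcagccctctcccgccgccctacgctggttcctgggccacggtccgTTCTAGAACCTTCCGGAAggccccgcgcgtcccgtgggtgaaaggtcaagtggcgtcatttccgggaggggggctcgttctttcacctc
Hspa1b, chr17:34959239-34959488, minus strand: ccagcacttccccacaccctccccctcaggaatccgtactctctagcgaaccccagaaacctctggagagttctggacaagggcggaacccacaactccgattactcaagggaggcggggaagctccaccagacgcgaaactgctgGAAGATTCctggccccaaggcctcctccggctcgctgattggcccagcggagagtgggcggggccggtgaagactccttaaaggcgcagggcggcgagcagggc
The match of Hsph1 begins 33 bases before the start site and that of Hspa1b 104, and the 3 of Hspe1, which overlap or touch, begin 89, 84 and 79 bases before it.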

How the data were processed

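The data are 2 fetal snATAC-seq libraries. Per the submitters' processing notes the build is mm10 and Bowtie2, MACS2 and bedtools were used; their settings and versions are not given in the sources used here. The deposited read lists (other: positions and barcodes, 163 to 200 bases long, no line repeated) give 6028168 and 15801908 reads for the barcodes the authors kept. The deposited read count of each nucleus equals the lines that carry its barcode. The authors' deposited table gives chromVAR deviation scores for 427 motifs, 388 of them distinct, with a class number and the reads of each nucleus; how the classes were made is not given in the sources used here. The deposited region lists hold 145453 distal and 19204 distinct promoter regions of 1000 bases, and the authors' deposited co-accessibility scores were used only to name a promoter. A deposited gene score table has 7846 columns with no sample name, which were not used.

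A read was assigned to each region or gene span that shared 1 or more bases with it, for 21884 gene spans (positions of RefSeq, GRCm38.p6), and reads were summed per library and class, since nuclei are not replicates. Features with a mean under 10 reads over the 4 sums were left out. The test was edgeR 4.0.16 (quasi-likelihood, TMM, R 4.3.3) with the library as a block, because both classes of a library come from the same pool of nuclei. Mean motif scores were tested with limma 3.58.1. A Benjamini-Hochberg adjusted p under 0.05 over all features is a call. The SE of an edgeR fold is its size over the square root of F. DESeq2 1.42.0 was an alternative. Plots were made with matplotlib 3.10.9 and tables with pandas 2.3.3, numpy 2.4.6 and scipy 1.17.1 under Python 3.11.15. The edgeR and limma fits were tested on simulated data. Named features are the 8 largest called, non-overlapping differences per direction with a mean of at least 50 reads (200 for gene spans), none on chromosome 18, and listed genes and motifs are given whatever their values, except that some named by these rules are not reported here. The members and lists were chosen with earlier results of these data known. Strands missing in the reference kept Hsp90aa1 and Hspa8 out of the zones along genes. No whole genome was used here, so distal regions were not searched for letters, apart from parts of a few that lie in windows before gene starts.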

Additional observations from a re-analysis of the deposited data

How the results depend on the processing

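The main counts are 346 distal regions called, 21 promoter regions called, 191 gene spans called and 103 motifs called. For distal regions called, scaling by reads in tested regions gave 523, scaling by all reads of the nuclei 205, no filter on low counts 540, counting nuclei with a read 1357, nuclei at or above the median depth 206, leaving out the 5% deepest nuclei 0 (3860 at an unadjusted p under 0.05), read midpoints 893, 4 classes in 1 fit 92 and DESeq2 6. For promoter regions called, nuclei at or above the median depth gave 6, without the 5% deepest nuclei 3, 4 classes in 1 fit 3, and DESeq2 0. For gene spans called, counting nuclei with a read gave 78, nuclei at or above the median depth 88, 4 classes in 1 fit 70, and DESeq2 14. For motifs called, medians over nuclei gave 54. The cause of these changes was not tested, apart from the fewer nuclei or reads that some settings hold by construction.

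With 1 of the 4 sums left out of the fit of 4 classes, where the lone sum is taken to vary like the other classes, the counts were 0 to 0 distal regions called, 0 to 0 promoter regions called, 6 to 17 gene spans called and 39 to 71 motifs called. At an unadjusted p under 0.05, edgeR then gave 1358 to 2945 distal regions called and 151 to 715 promoter regions called. For distal regions with a different change in the basal pair, scaling by reads in tested regions gave 1 in place of 0, and leaving out 1 sum gave 0 to 1. For motifs with a different change in the basal pair, leaving out 1 mean gave 0 to 1. The single calls came without class 12 replicate 1.

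The library block pairs sums from the same pool. With no replicate block the counts were 352 distal regions called (306 shared with the main fit), 19 promoter regions called, 128 gene spans called (124 shared) and 70 motifs called. Scaling by all reads of the nuclei shifted the median promoter log2 fold change to 0.10 and changed the split of promoter regions called from 1 higher in class 5 and 20 higher in class 9 to 11 and 15, and that of gene spans called from 32 and 159 to 53 and 104.

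The promoter read share difference of 1.71 points was 1.55 by read midpoints, 2.15 in nuclei at or above the median depth, and 1.66 to 1.77 in single libraries. The median reads per nucleus difference of −1458 was −1848 as a difference of means, and −1675 to −1241 in single libraries. No named region, gene or motif changed direction in any setting. Called features had values that did not overlap between the classes, so this is partly set by how they were chosen. DESeq2 kept 3 of 16 named distal regions, 0 of 9 promoter regions and 6 of the 25 gene spans to which it gave an adjusted p, with none given for the other 5. Single libraries leave no residual degree of freedom and give values with no test. Features with a mean under 10 reads were too shallow for the main test.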
